A study of Mus musculus with 12 samples.

Results

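The expression of 10 genes of extracellular matrix processing was followed across gonadal (peri-uterine) white fat of pregnant mice: Pcolce, Pcolce2, Lox, Loxl1, Htra1, Htra3, Sparc, Sparcl1, Srpx2 and Mfge8. They are 10 of 20632 genes in the deposited count tables, and all 10 were among the 12175 that passed the filter on low counts. They were chosen by name for their roles, and also because several differed between knockout and wild type mice given vehicle. That contrast therefore helped to choose them, and its values are given below as a description. All mice were pregnant at E17.5, and all labels name the Tnfrsf11a (Rank) line. The 4 WT vehicle libraries carry no Foxn1 Cre, the 4 KO vehicle libraries carry it, and the 4 KO Treg libraries carry it and received the treatment labelled Treg. The label of each library holds its own number, taken here as 1 mouse. Tnfrsf11a encodes the receptor RANK, and Foxn1 is a gene of the thymic epithelium. The tissues in which the Cre acted were not examined here. No source used here gives the age of the mice.

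Fibrillar collagen is secreted as procollagen, assembles into fibrils once its end pieces are cut off, and is then crosslinked within the fibril. Pcolce and Pcolce2 encode secreted enhancers of the protease that removes the C-terminal piece. Lox and Loxl1 encode copper-dependent oxidases that start crosslinks in collagen and elastin, and Htra1 and Htra3 encode secreted serine proteases that cut matrix proteins. Sparc, Sparcl1, Srpx2 and Mfge8 encode secreted proteins that bind matrix or cell surfaces without building the fibre. In white fat the matrix surrounds each adipocyte and is remodelled as the depot grows or shrinks.

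Of the members, 4 stood higher in every KO vehicle library than in every WT vehicle library and passed the threshold in the contrast that helped choose them: Pcolce2, Htra3, Srpx2 and Mfge8. The 250 bases before their RefSeq start sites (build GRCm38.p6) are shown because these genes were high in the same libraries. Each is written 5′ to 3′ on the strand of its gene, with matches to the motifs searched in capitals. The Pcolce2 stretch lies on the plus strand at chr9:95637378-95637627, and its capitals are a GC box. The Htra3 stretch lies on the minus strand at chr5:35679781-35680030, and its capitals are a CCAAT box. The Srpx2 stretch lies on the plus strand at chrX:133908175-133908424, and its capitals are an AP-1 site. The Mfge8 stretch lies on the minus strand at chr7:79149061-79149310, and its capitals are GC boxes.
Pcolce2: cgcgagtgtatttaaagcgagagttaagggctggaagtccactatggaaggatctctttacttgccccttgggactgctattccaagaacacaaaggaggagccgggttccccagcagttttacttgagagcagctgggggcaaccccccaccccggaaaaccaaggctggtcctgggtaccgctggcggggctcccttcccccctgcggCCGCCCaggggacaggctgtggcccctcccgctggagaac
Htra3: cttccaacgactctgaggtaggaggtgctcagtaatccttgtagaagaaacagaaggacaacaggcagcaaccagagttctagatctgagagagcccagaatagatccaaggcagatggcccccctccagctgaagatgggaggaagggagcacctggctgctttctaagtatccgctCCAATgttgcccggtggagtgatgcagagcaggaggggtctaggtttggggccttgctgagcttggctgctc
Srpx2: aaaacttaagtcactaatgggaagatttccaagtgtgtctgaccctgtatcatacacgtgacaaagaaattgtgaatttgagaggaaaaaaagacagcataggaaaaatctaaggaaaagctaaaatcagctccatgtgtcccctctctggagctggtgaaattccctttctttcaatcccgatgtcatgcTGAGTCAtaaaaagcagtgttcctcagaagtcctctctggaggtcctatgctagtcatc
Mfge8: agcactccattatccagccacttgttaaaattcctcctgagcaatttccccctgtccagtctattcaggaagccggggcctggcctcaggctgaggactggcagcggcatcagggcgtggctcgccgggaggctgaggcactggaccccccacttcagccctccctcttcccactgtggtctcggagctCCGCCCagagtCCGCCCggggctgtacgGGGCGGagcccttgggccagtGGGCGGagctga
The motifs searched, on both strands, were the TATA box (TATAAA), the CCAAT box (the letters of its name), the GC box (GGGCGG), the AP-1 site (TGACTCA) and the TEAD site (GGAATG). None of these motifs is contained in another. The RefSeq table matched 7 of the 10 members, and Lox, Loxl1 and Sparcl1 had no entry. GGGCGG was in 4 of these 7 promoters and in 32.7% of all 32851 promoters of the same length. The CCAAT box was in 2 of 7 against 33.8% of all, and TGACTCA in 1 of 7, Srpx2, against 4.46% of all. TATAAA (12.4% of all) and GGAATG (12.6% of all) were in none of the 7. The 4 printed stretches differed in base composition, from 41.2% G and C for Srpx2 to 65.2% for Mfge8. No single motif of those searched was present in all 4.

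Levels are given as CPM, the counts of a gene scaled to a common library size by TMM. QuantSeq libraries hold reads from the 3′ end of each transcript. Levels are compared here across libraries and not between genes. In bulk tissue, fewer cells of a type and less RNA per cell cannot be told apart. Gene positions are those of GENCODE M21 in build mm10. Library totals were 5551967 to 12972655 counts for WT vehicle, 8350348 to 9617503 for KO vehicle and 6583263 to 8746946 for KO Treg. Counts of a member in a library ran from 103 (Lox) to 34510 (Sparc). The targeted gene, Tnfrsf11a, was at 8.20 ± 2.51 CPM for WT vehicle, 7.61 ± 1.11 for KO vehicle and 7.78 ± 1.92 for KO Treg (SD, n = 4 each). Foxn1 had a count of 0 in all 12 libraries, so reads from fat do not check a deletion in cells that express Foxn1. Foxp3, the defining factor of regulatory T cells, was counted 4 times in KO vehicle 4, 1 time in WT vehicle 4 and 0 times in the other 10 libraries, all of KO Treg included, so these reads do not check the treatment either. At these depths a count of 0 allows up to 0.231 to 0.540 CPM in a library, for counting error only. Adipocyte markers, with all 7 of 7 listed genes detected, summed to 31282 to 47039 CPM for WT vehicle, 42571 to 51252 for KO vehicle and 32198 to 48404 for KO Treg. Fabp4 alone was at 19027 to 36894 CPM across the 12 libraries, so this sum was mostly Fabp4. Every KO vehicle library was above 3 of the 4 WT vehicle libraries in this sum. The numbers in the labels form a lower and a higher run, called number series here: the 4 KO vehicle libraries are all in the lower one, and WT vehicle and KO Treg each have 2 in either. Placental markers summed to 85.0 CPM in KO vehicle 1 and 237 CPM for KO Treg 2, against 12.9 to 32.01 in the other 10 libraries. None of the 8 listed genes was at 0 in all 12, but only 1 passed the filter on low counts. Psg23 ran from 12.7 to 166 CPM, while Prl2c2, Prl3d1 and Prl7b1 reached at most 0.343 CPM in any library. Thermogenic markers summed to 5133 CPM in WT vehicle 1, and to 27.5 to 1969 CPM in the other 11. Replicate numbers follow the order of deposition and pair no libraries.

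**Figure D1:**
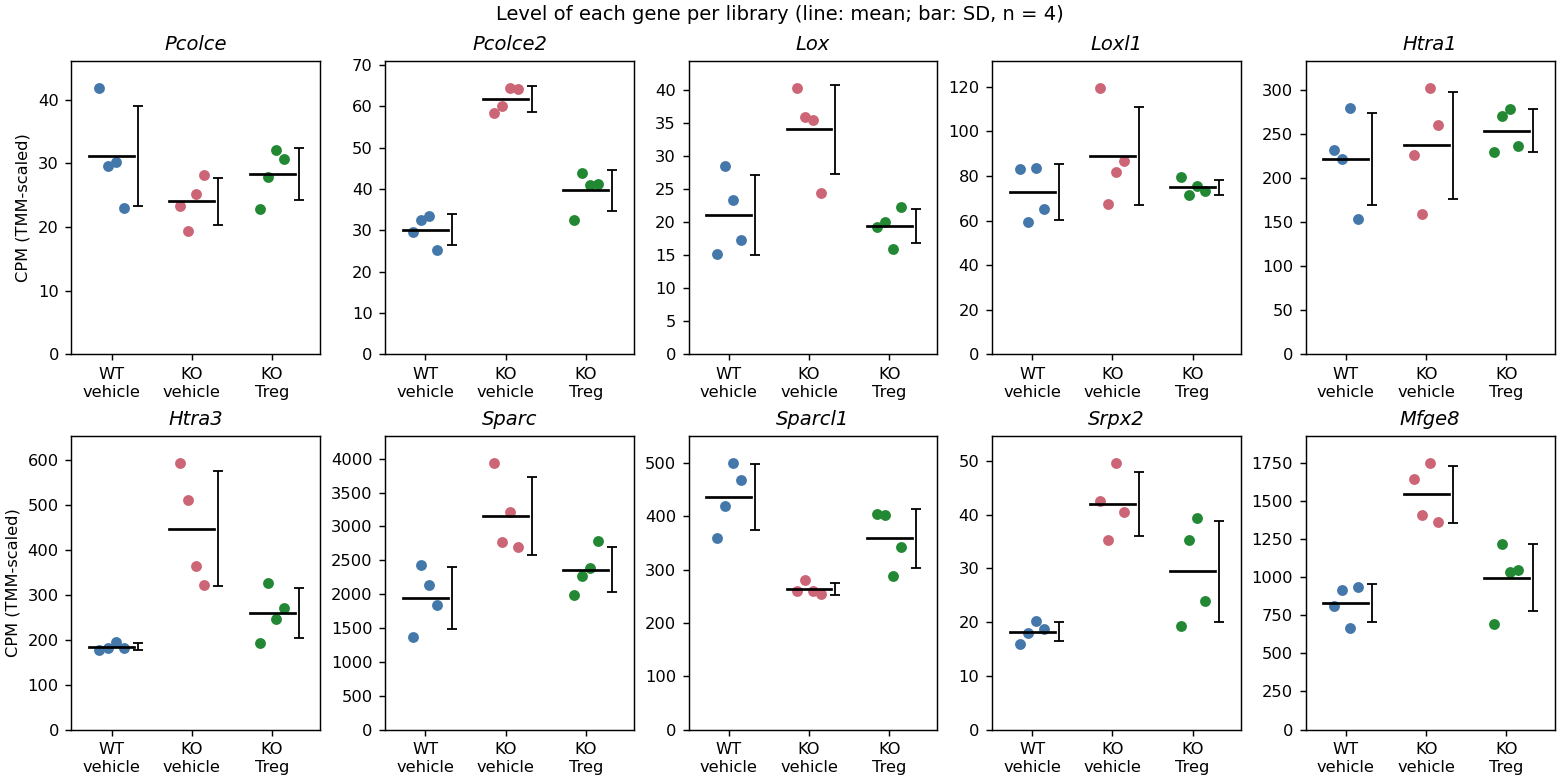
CPM of each of the 10 genes in every library (points), by group on the horizontal axis, with the group mean (line) and SD (bar, n = 4). The KO vehicle points of Pcolce2, Htra3, Srpx2 and Mfge8 lie above all WT vehicle points, those of Sparcl1 lie below, and all 3 groups overlap for Pcolce, Loxl1 and Htra1.

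Of the procollagen processing pair, Pcolce2 separated KO vehicle from the other groups and Pcolce did not. Pcolce2 (chromosome 9, 95637601 to 95698096, plus strand, protein coding) was at 29.6, 32.5, 33.6 and 25.2 CPM in WT vehicle 1 to 4. It was at 58.3, 60.1, 64.5 and 64.3 CPM in KO vehicle 1 to 4, and at 32.5, 44.0, 41.0 and 41.3 CPM for KO Treg 1 to 4. Every KO vehicle library was above every other library, and 3 of the 4 KO Treg libraries were above all of WT vehicle. The spread within KO vehicle was small, with a coefficient of variation of 4.98%. Pcolce (chromosome 5, 137605103 to 137613784, minus strand, protein coding) was at 41.9, 29.6, 30.2 and 23.1 CPM in WT vehicle 1 to 4 and at 23.3, 19.4, 25.2 and 28.2 CPM in KO vehicle 1 to 4. In KO Treg 1 to 4 it was at 22.9, 27.9, 32.2 and 30.7 CPM. The 3 groups overlapped, and the highest library was WT vehicle 1. Exons of Pcolce overlap those of Fbxo24 on the same strand and Gm36266 on the other, so its counts are uncertain. WT vehicle 1 also had the highest sum of stromal progenitor markers, 432 CPM against 336 to 417 CPM in the other 11 libraries. Its part in the level of Pcolce was not tested.

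Of the crosslinking oxidases, Lox was highest in KO vehicle and Loxl1 overlapped throughout. Lox (chromosome 18, 52516067 to 52529867, minus strand, protein coding) was at 15.2, 28.4, 23.4 and 17.4 CPM in WT vehicle 1 to 4. It was at 40.3, 35.9, 35.5 and 24.4 CPM in KO vehicle 1 to 4 and at 19.3, 19.98, 16.0 and 22.2 CPM for KO Treg 1 to 4. The 4 KO Treg libraries were below the 4 KO vehicle libraries, and KO vehicle 4 lay within the range of WT vehicle. Exons of Lox overlap those of AC161119.1 on the opposite strand, and no source used here gives the strand setting of the counting. Loxl1 (chromosome 9, 58287738 to 58313186, minus strand, protein coding) was at 82.9, 59.2, 83.7 and 65.0 CPM in WT vehicle 1 to 4. In KO vehicle 1 to 4 it was at 119.5, 67.6, 81.7 and 86.7 CPM, and in KO Treg 1 to 4 at 79.4, 71.3, 75.5 and 73.5 CPM. KO vehicle 1 was the highest library for both oxidases, and it is a library with raised placental markers. Without that library the log2 difference between KO vehicle and WT vehicle was 0.60 for Lox and 0.11 for Loxl1, against 0.69 and 0.29 with it. The part of placental tissue in the level of either oxidase was not tested.

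Of the secreted proteases, Htra3 was higher in KO vehicle than in WT vehicle and Htra1 was not separated. Htra3 (chromosome 5, 35652023 to 35679782, minus strand, protein coding) was at 177, 182, 195 and 181 CPM in WT vehicle 1 to 4, with a coefficient of variation of 4.33%. It was at 594, 511, 363 and 321 CPM in KO vehicle 1 to 4, and at 194, 327, 245 and 271 CPM for KO Treg 1 to 4. All KO vehicle libraries were above all WT vehicle libraries, and KO Treg 3 and KO Treg 4 lay between those groups. KO Treg 1, at 194 CPM, was within the range of WT vehicle. KO Treg 2, at 327 CPM, was just above KO vehicle 4, at 321 CPM. Htra3 is also known from the pregnant uterus and placenta, and its highest KO vehicle library and its highest KO Treg library were the ones with the highest placental marker sums. With both left out, the log2 difference was 1.11 for KO vehicle against WT vehicle and -0.75 for KO Treg against KO vehicle, against 1.28 and -0.79 with them. For KO Treg against WT vehicle it was 0.36 without them and 0.50 with them. Pearson's r of Htra3 with the summed placental markers, on the log2 scale, was 0.34 over the 12 libraries and 0.65 about the group means. The part of placental tissue in the level of Htra3 was not tested. Htra1 (chromosome 7, 130936111 to 130985660, plus strand, protein coding) was at 232, 221, 279.8 and 153 CPM in WT vehicle 1 to 4. In KO vehicle 1 to 4 it was at 227, 159, 303 and 260.5 CPM, and in KO Treg 1 to 4 at 229, 271, 279 and 237 CPM. The 3 groups of Htra1 overlapped, and the coefficient of variation was 23.6% in WT vehicle, 25.6% in KO vehicle and 9.63% in KO Treg.

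Of the SPARC family pair, Sparc was higher and Sparcl1 lower in KO vehicle than in WT vehicle, each with no overlap. Sparc (chromosome 11, 55394500 to 55423183, minus strand, protein coding) was at 1364, 2433, 2132 and 1843 CPM in WT vehicle 1 to 4. It was at 3939.6, 2766, 3219 and 2691 CPM in KO vehicle 1 to 4 and at 1992, 2265, 2387 and 2789 CPM for KO Treg 1 to 4. Only KO Treg 4 reached the range of KO vehicle, and the KO Treg libraries overlapped with WT vehicle. Sparcl1 (chromosome 5, 104079111 to 104113733, minus strand, protein coding) encodes a SPARC-like protein known from vessel walls. It was at 359, 419, 500.1 and 467 CPM in WT vehicle 1 to 4 and at 260.1, 279.9, 259 and 255 CPM in KO vehicle 1 to 4. In KO Treg 1 to 4 it was at 403, 403, 288 and 342 CPM. Every KO vehicle library was below every other library, and KO Treg overlapped with WT vehicle.

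Smooth muscle markers varied widely between libraries and are given beside Sparcl1. All 6 of 6 listed smooth muscle genes were detected, and their sum was 207 to 1955 CPM for WT vehicle, 267 to 744 CPM for KO vehicle and 170 to 1101 CPM for KO Treg. The libraries with the lowest sums in WT vehicle and KO Treg, WT vehicle 1 and KO Treg 3, also had the lowest Sparcl1 of their groups. WT vehicle 3 had the highest value of both. Within KO vehicle the library with the highest sum, KO vehicle 4, had the lowest Sparcl1. WT vehicle 1 had a lower sum than all 4 KO vehicle libraries and a higher level of Sparcl1 than all 4. Pearson's r of Sparcl1 with the smooth muscle sum was 0.68 on the log2 scale over the 12 libraries and 0.81 about the group means. Sparcl1 also ran against the summed adipocyte markers, mostly Fabp4, with r at -0.72 and -0.80 in the same order. These values are descriptions. Every member was correlated with every marker list, and these values are among the largest about the group means. Others there were 0.68 for Srpx2 with the epithelial and mammary sum and 0.65 for Htra3 with the placental sum. The libraries share their scaling, and the part of either marker list in Sparcl1 was not tested.

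**Figure D2:**
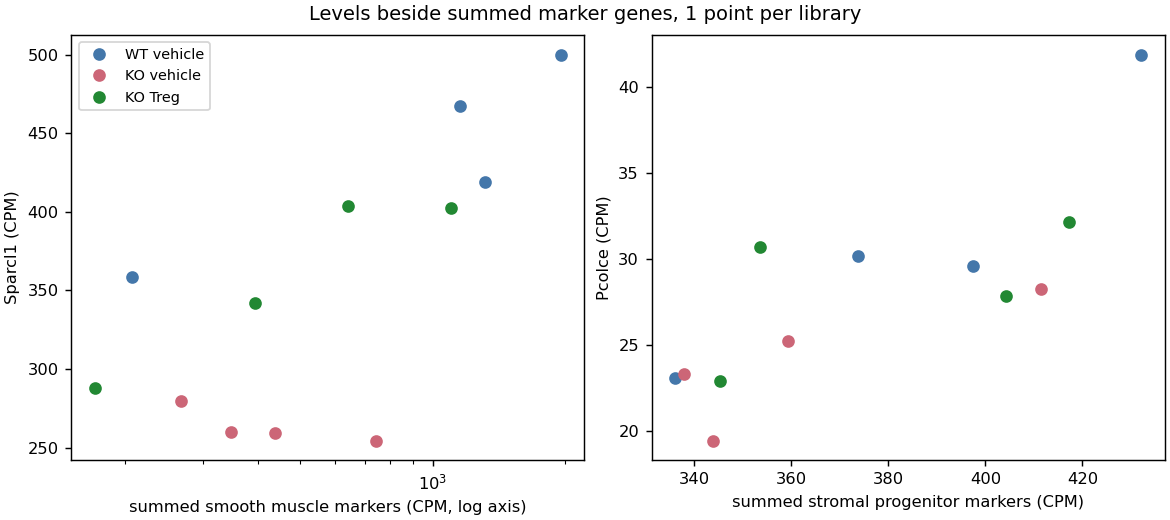
Left: Sparcl1 (CPM) against the summed smooth muscle markers (CPM, log axis); right: Pcolce (CPM) against the summed stromal progenitor markers (CPM), 1 point per library, coloured by group. The KO vehicle points of Sparcl1 stay between 255 and 279.9 CPM over sums of 267 to 744 CPM, and WT vehicle 1 is highest on both axes of the right panel. Both pairs have among the largest correlations of a member with a marker list about the group means.

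Srpx2 and Mfge8, the other matricellular members, were higher in every KO vehicle library than in every WT vehicle library. Srpx2 (chromosome X, 133908426 to 133932446, plus strand, protein coding) encodes a sushi-repeat protein that binds the urokinase receptor. It was at 15.9, 18.0, 20.1 and 18.8 CPM in WT vehicle 1 to 4, at 42.5, 35.4, 49.6 and 40.4 CPM in KO vehicle 1 to 4, and at 19.2, 35.3, 39.3 and 23.9 CPM for KO Treg 1 to 4. The KO Treg libraries were spread widely, with a coefficient of variation of 32.1% against 9.64% in WT vehicle and 14.1% in KO vehicle. KO Treg 1 lay within the range of WT vehicle and KO Treg 3 within that of KO vehicle. Mfge8 (chromosome 7, 79133768 to 79149060, minus strand, protein coding) encodes a secreted bridge between phosphatidylserine on dying cells and integrins of phagocytes. It was at 811, 917, 663 and 934 CPM in WT vehicle 1 to 4 and at 1645, 1408, 1749 and 1363 CPM in KO vehicle 1 to 4. In KO Treg 1 to 4 it was at 689, 1215, 1034 and 1047 CPM. All 4 KO vehicle libraries were above the other 8. Mammary epithelium makes Mfge8 in large amounts, and of 8 listed epithelial and mammary genes Krt5 and Wap were at 0 in all 12 libraries. Krt8 was at 2.51 to 8.55 CPM and Krt18 at 1.94 to 11.4 CPM, the highest of that list. The milk protein genes Csn2 and Lalba reached at most 0.406 and 1.58 CPM. The sum of that list was 6.75 to 19.8 CPM for WT vehicle, 7.99 to 17.2 CPM for KO vehicle and 5.22 to 19.8 CPM for KO Treg. Mfge8 ran with the summed adipocyte markers, mostly Fabp4, with a Pearson r of 0.70 over the 12 libraries and 0.69 about the group means. These values are a description, and the second is among the largest of any member with any marker list about the group means. The part of mammary tissue or of the adipocyte markers in the level of Mfge8 was not tested.

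KO vehicle against WT vehicle is the contrast that helped to choose the members, and nothing is read from it. In the fit of all genes (edgeR quasi-likelihood test, Benjamini-Hochberg adjustment over all 12175 genes, threshold 0.05), 5 of 10 members were past the threshold, against 0.279% of all genes tested. The log2 fold changes were 1.03 ± 0.13 (SE) for Pcolce2, 1.28 ± 0.19 for Htra3, 1.21 ± 0.20 for Srpx2, 0.89 ± 0.17 for Mfge8 and -0.73 ± 0.14 for Sparcl1. Outside the threshold, Sparc was at 0.70 ± 0.18 and Lox at 0.69 ± 0.20, the nearest to it, followed by Pcolce at -0.38 ± 0.18, Loxl1 at 0.29 ± 0.16 and Htra1 at 0.10 ± 0.19. DESeq2 put 6 members past the threshold, the same 5 and Sparc, beside 1.93% of all genes. Groups did not overlap for 5 higher members (4.17% of all genes) and 1 lower member (2.33%). With the number series as a covariate, or within the lower series, no member passed the threshold, nor did any of the 12175 or 12524 genes tested (edgeR), of which 1474 and 1337 had an unadjusted p under 0.05. The log2 differences within the lower series were 0.99 for Pcolce2, 1.27 for Htra3, 1.29 for Srpx2, 0.83 for Mfge8 and -0.56 for Sparcl1. Leaving out 1 library at a time left 1 to 5 members past the threshold. The count fell to 1, Pcolce2, when KO vehicle 1, or KO vehicle 2, or else WT vehicle 3 was left out. It was 2, Pcolce2 and Htra3, when KO vehicle 3, or KO vehicle 4, or else WT vehicle 2 was left out, and 3 without KO Treg 4.

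KO Treg against KO vehicle asks how the knockouts given the treatment labelled Treg differed from those given vehicle. No member passed the threshold in either direction with edgeR, and 1 of all 12175 genes did (0.00821%). The comparison shares its KO vehicle libraries with the contrast that chose the members, so a member picked as high there also starts high here. The log2 fold changes of the members were -0.81 ± 0.20 (SE) for Lox, -0.79 ± 0.19 for Htra3, -0.64 ± 0.13 for Pcolce2, -0.63 ± 0.17 for Mfge8 and -0.51 ± 0.19 for Srpx2. Sparc was at -0.42 ± 0.18, Loxl1 at -0.25 ± 0.16, Htra1 at 0.10 ± 0.19, Pcolce at 0.24 ± 0.18 and Sparcl1 at 0.45 ± 0.14. The smallest edgeR adjusted p of a member was 0.248, for Pcolce2 and Htra3, and 7 of 10 members had an unadjusted p under 0.05, against 8.77% of all genes. DESeq2 put 3 members past the threshold, Pcolce2 (adjusted p = 0.00776), Htra3 (0.0290) and Lox (0.0498), beside 0.561% of all genes. Groups did not overlap for Pcolce2, Lox and Mfge8 on the lower side (3.03% of all genes) and for Sparcl1 on the higher side (2.01%). The median over the members was -0.47, beside -0.0018 over all genes tested. Within the lower number series, which holds 2 KO Treg libraries, the differences were -0.70 for Pcolce2, -0.76 for Lox, -0.78 for Htra3, -0.74 for Mfge8 and 0.61 for Sparcl1.

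KO Treg against WT vehicle asks how far treated knockouts differed from wild type. With edgeR no member and none of the 12175 genes passed the threshold, and DESeq2 called no member and 1 gene (0.00608%). The comparison shares its WT vehicle libraries with the contrast that chose the members. Srpx2 had the largest difference, at 0.69 ± 0.20 (SE) on the log2 scale, followed by Htra3 at 0.50 ± 0.19 and Pcolce2 at 0.39 ± 0.13. These 3 members had an unadjusted p under 0.05 (2.87% of all genes did), and the edgeR adjusted p was 0.999992 for all 10. The other members lay between -0.28 ± 0.14 for Sparcl1 and 0.28 ± 0.18 for Sparc. No member had groups that did not overlap, against 1.63% of all genes. By number series, the difference of Srpx2 was 0.61 in the lower and 0.65 in the higher series, and that of Htra3 was 0.48 and 0.46. Sparcl1 was at 0.056 in the lower and -0.62 in the higher series, and Pcolce at -0.48 and 0.25. The signs of these genes thus differed between the series, each with 2 libraries of either group. Without WT vehicle 1, Pcolce was at 0.041 over both series. The part of the series in these signs was not tested.

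**Figure D3:**
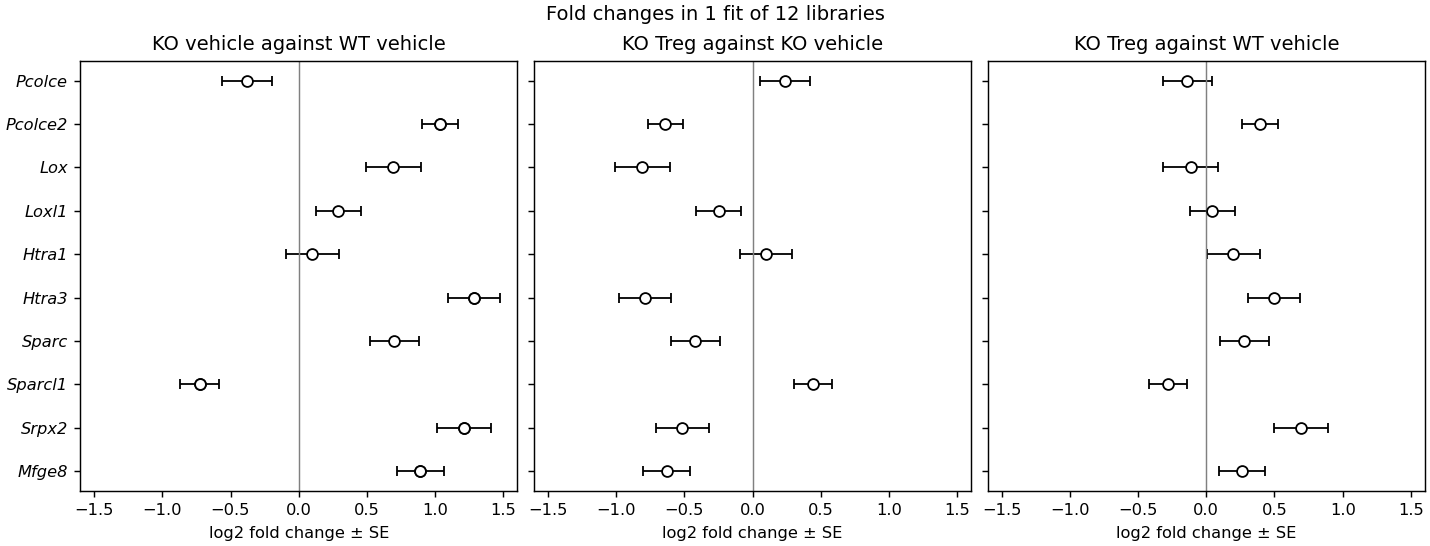
Log2 fold change of each gene (points) with its SE (bars) in the 3 comparisons, from 1 fit of 12 libraries. In the KO Treg against WT vehicle panel the points lie between -0.28 and 0.69, and in the KO vehicle against WT vehicle panel between -0.73 and 1.28.

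In order of group means, 6 members (Pcolce2, Loxl1, Htra3, Sparc, Srpx2 and Mfge8) were lowest in WT vehicle, between in KO Treg and highest in KO vehicle. This was the order of 21.5% of all genes tested. Pcolce and Sparcl1 had the reverse order, as had 22.3% of all genes. KO Treg was thus between for 8 members, beside 43.8% of all genes. Members chosen because the vehicle groups differ favour a group that falls between them, so nothing is read from these counts. Lox was lowest in KO Treg and highest in KO vehicle, and Htra1 was lowest in WT vehicle and highest in KO Treg. The library values of KO Treg and WT vehicle overlapped for all 10 members. Those of KO Treg and KO vehicle overlapped for 6, Pcolce, Loxl1, Htra1, Htra3, Sparc and Srpx2.

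Ratios of counts within a library show how the 2 members of a pair moved against each other. They are descriptions, and the size of a ratio does not rank the 2 genes. Pcolce2 over Pcolce was 1.003 ± 0.198 (SD, n = 4) in WT vehicle, 2.61 ± 0.344 in KO vehicle and 1.40 ± 0.130 in KO Treg. The ranges of the 3 groups were 0.706 to 1.11, 2.28 to 3.09 and 1.28 to 1.58, so no group overlapped with another. The choice of members favours the gap between KO vehicle and WT vehicle. Neither gene alone separated KO Treg from WT vehicle, and the counts of Pcolce are uncertain. No share over other pairs of genes was computed, so nothing is read from this separation. Sparc over Sparcl1 was 4.45 ± 0.920 in WT vehicle, 12.003 ± 2.35 in KO vehicle and 6.75 ± 1.72 in KO Treg. The lowest KO vehicle ratio, 9.88, was above the highest of the other groups, 8.29, and the ranges of WT vehicle and KO Treg overlapped. Htra3 over Htra1 was 0.867 ± 0.215 in WT vehicle, 2.07 ± 1.01 in KO vehicle and 1.02 ± 0.184 in KO Treg. KO vehicle 1 and KO vehicle 2, at 2.62 and 3.21, were apart from KO vehicle 3 and KO vehicle 4, at 1.20 and 1.23. Lox over Loxl1 overlapped between all groups, at 0.302 ± 0.126, 0.396 ± 0.110 and 0.260 ± 0.0400. The longest run of identical bases shared by transcripts of a pair was 12 for Pcolce and Pcolce2, 14 for Sparc and Sparcl1, 17 for Htra1 and Htra3 and 32 for Lox and Loxl1.

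**Figure D4:**
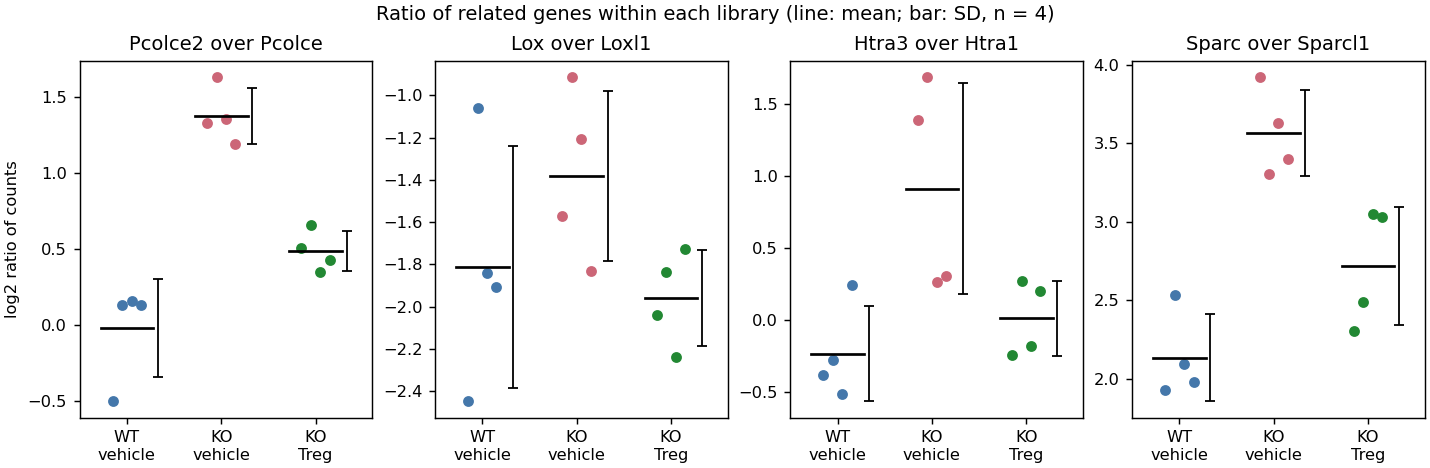
Log2 ratio of the counts of 2 related genes in each library (points), by group, with the mean (line) and SD (bar, n = 4); the vertical axes do not start at 0. The ratios of Pcolce2 over Pcolce are 0.706 to 1.11 in WT vehicle, 1.28 to 1.58 in KO Treg and 2.28 to 3.09 in KO vehicle. The contrast of the vehicle groups helped choose the members, and the counts of Pcolce are uncertain.

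Across the 12 libraries the members that stood higher in KO vehicle also varied together, as the choice of members would give. Pearson's r of log2 CPM was 0.90 for Pcolce2 with Srpx2, 0.88 for Pcolce2 with Htra3, 0.87 for Srpx2 with Mfge8 and -0.86 for Pcolce2 with Sparcl1. These values hold the group differences, so the deviations from the group means were also compared. There, r was 0.79 for Lox with Sparc, 0.67 for Pcolce with Htra1, 0.66 for Pcolce2 with Htra1 and 0.61 for Srpx2 with Mfge8. Pcolce with Pcolce2 was at 0.56 about the group means and at -0.36 over all libraries. Pcolce with Sparcl1 was at -0.74 about the group means. The points share libraries and their scaling, and no test was made.

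The genes most like each member over the 12 libraries, by Pearson's r of log2 CPM, were listed as a description. Srpx2 was most like Sncg (0.98), a synuclein of adipocytes and neurons, and Ehd3 (0.95), an endosomal membrane protein. Pcolce2 was most like P3h2 (0.96), a collagen prolyl 3-hydroxylase, and Ptafr (0.94), the receptor for platelet-activating factor. Sparc was most like Cdr2 (0.96) and Anxa3 (0.92), and Htra3 most like Tpm4 (0.94), a tropomyosin, and Anxa2 (0.93). Mfge8 was most like Ptrf (0.95), a coat protein of caveolae, and Sfrp5 (0.95), a secreted Wnt inhibitor of fat. Sparcl1 was most like Cpe (0.91), a carboxypeptidase of secretory granules, and Cyp2f2 (0.91). Htra1 was most like Sdc2 (0.92), a syndecan, and Il34 (0.87), a ligand of the CSF1 receptor. Lox was most like Mmgt1 (0.90) and Tmem167 (0.87), Loxl1 like Pdia5 (0.88) and Slc7a10 (0.87), and Pcolce like Glud1 (0.88) and Cat (0.88). Of these genes, Anxa3 and Mmgt1 share exon bases with another gene on the same strand. P3h2, Tmem167, Slc7a10, Il34, Tpm4, Anxa2 and Cyp2f2 share them with 1 on the opposite strand (Il34 with a pair). The counts of these genes are uncertain. Ptrf was not found under that name in GENCODE M21, so its overlaps were not checked.

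The other genes of matrix processing came from 5 lists of 87 genes, of which 77 passed the filter on low counts. These lists were also chosen with earlier results of these data known, so their counts and medians are descriptions. None of the 77 passed the edgeR threshold in any of the 3 comparisons. In KO vehicle against WT vehicle, 22 of the 77 had an unadjusted p under 0.05 on the higher side and 6 on the lower side. Over all 12175 genes tested, 850 did on the higher side and 664 on the lower side, 12.4% with both sides together. For KO Treg against KO vehicle the list counts were 2 higher and 15 lower, beside 449 and 619 over all genes (8.77% together). In KO Treg against WT vehicle they were 3 and 2, beside 188 and 161 over all genes (2.87% together). DESeq2 called 7 of the list genes in KO vehicle against WT vehicle, beside the 1.93% of all genes given above: P3h1, Plod1, Tgm2, Mmp9 and Thbs1 higher, and Plod2 and Lum lower. It called none of them in the other comparisons.

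Among procollagen processing genes, which include more than the protease that the Pcolce proteins serve, none was called. Of 7 listed, 5 were tested, with a median log2 difference of -0.041 in KO vehicle against WT vehicle. Bmp1, the main procollagen C-proteinase, was at 17.3 ± 3.65 CPM (SD, n = 4) in WT vehicle, 14.6 ± 1.296 in KO vehicle and 16.4 ± 1.45 in KO Treg. Tll1, a related proteinase, had only 2 to 20 counts in a library. Collagen modification and crosslinking enzymes had a median of 0.24 over 17 tested genes in that comparison, and of -0.29 in KO Treg against KO vehicle. P3h1, a prolyl 3-hydroxylase, was at 21.2 to 27.8 CPM for WT vehicle, 28.9 to 49.3 CPM for KO vehicle and 25.01 to 29.7 CPM for KO Treg. Plod2, a lysyl hydroxylase whose product is needed for stable crosslinks, was at 21.8 to 38.3 CPM, 17.2 to 21.01 CPM and 21.6 to 26.3 CPM in the same order. Neither gene overlapped between KO vehicle and WT vehicle, and they lay on opposite sides. Exons of Plod2 overlap those of Gm38391 on the opposite strand.

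Secreted proteases and inhibitors had a median of 0.22 over 20 tested genes in KO vehicle against WT vehicle. Mmp9, a gelatinase, was at 35.6 to 49.7 CPM for WT vehicle, 55.4 to 105 CPM for KO vehicle and 53.9 to 63.5 CPM for KO Treg. It was above the range of WT vehicle in all 8 knockout libraries, with an edgeR adjusted p of 0.0836 for KO vehicle against WT vehicle. Serpinf1, which encodes the secreted serpin PEDF, was at 69.3 ± 17.9 CPM for WT vehicle, 103 ± 11.5 in KO vehicle and 83.2 ± 10.8 in KO Treg (SD, n = 4). Matricellular proteins had a median of 0.31 over 17 tested genes. Thbs1, a thrombospondin, was at 12.97 to 47.0 CPM, 40.3 to 159 CPM and 11.02 to 54.5 CPM for WT vehicle, KO vehicle and KO Treg, and its exons overlap those of Gm29233 on the opposite strand. Fstl1, a follistatin-like secreted protein, was at 91.1 to 128 CPM, 133 to 229.8 CPM and 106 to 133 CPM in the same order.

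The fibril and elastic fibre genes, which encode the substrates of these enzymes, had a median of -0.090 over 18 tested genes in KO vehicle against WT vehicle. Their median in KO Treg against KO vehicle was -0.036. Lum, a small proteoglycan that spaces collagen fibrils, was at 58.9 to 129 CPM for WT vehicle, 30.9 to 39.4 CPM for KO vehicle and 46.9 to 100.5 CPM for KO Treg. Its KO vehicle libraries were below the other 8, with an edgeR adjusted p of 0.0836 for KO vehicle against WT vehicle. Fbln2, a fibulin of elastic fibres and basement membranes, was at 49.8 to 63.1 CPM, 61.8 to 122 CPM and 48.1 to 73.2 CPM in the 3 groups. The median over the 10 members was 0.70 in KO vehicle against WT vehicle, the contrast that chose them, beside 0.18 over the 77 list genes and -0.0039 over all genes tested. In KO Treg against WT vehicle the members' median was 0.23 and that of the list genes 0.059.

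**Figure D5:**
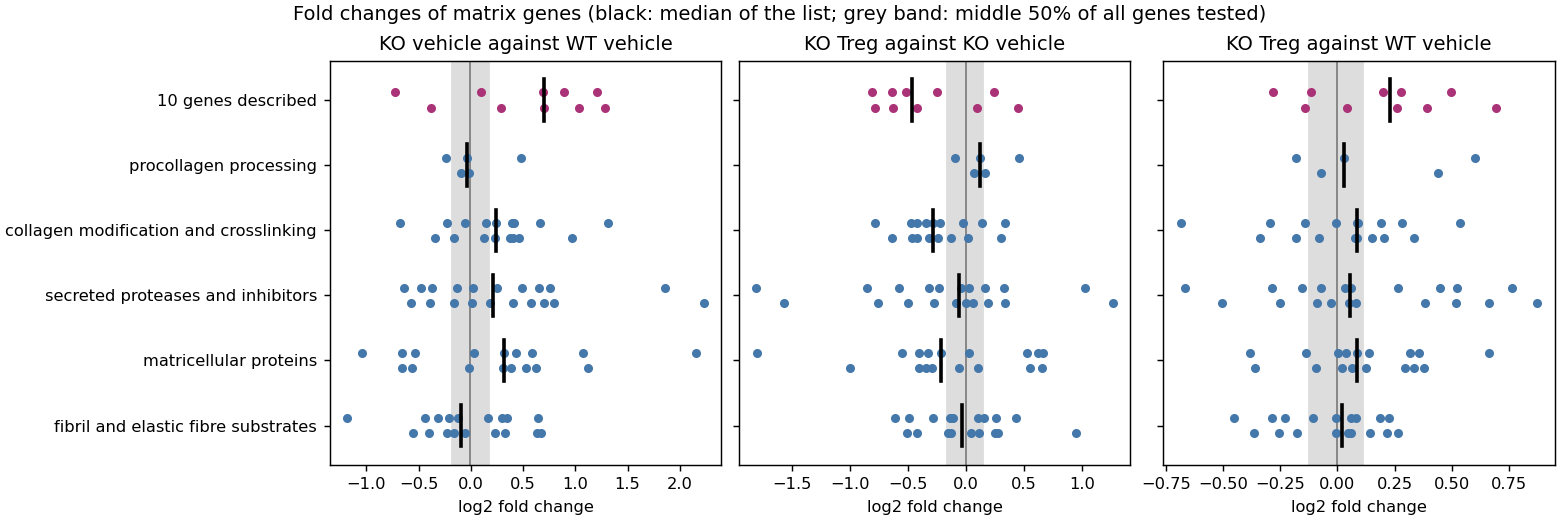
Log2 fold change of each tested gene (points) by list, with the list median (black line) and the middle 50% of all genes tested (grey band), in the 3 comparisons. In the KO vehicle against WT vehicle panel the median of the 10 described genes is at 0.70 and that of the fibril and elastic fibre genes at -0.090; each panel has its own horizontal scale.

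Markers of other cells were set beside the members as sums of CPM over each list. Stromal progenitor markers summed to 336 to 432 CPM for WT vehicle, 338 to 411 CPM for KO vehicle and 345 to 417 CPM for KO Treg. Endothelial markers summed to 963 to 1187 CPM, 1054 to 1218 CPM and 1022 to 1088 CPM in that order, and macrophage markers to 407 to 473 CPM, 435 to 562 CPM and 375 to 574 CPM. Mesothelial markers, with 6 of 7 listed genes in the tables, summed to 103 to 218 CPM, 96.8 to 162 CPM and 102 to 228 CPM. The sums of these 4 lists overlapped between all groups. The part of cell makeup in the members' levels was not tested.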

How the data were processed

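Total RNA of 12 fat samples was made into QuantSeq 3′ libraries, per the labels' protocols. Raw counts per gene symbol were deposited, in 1 table a library. The submitters' processing notes name BWA 0.7.12, SAMtools 1.3.1, TopHat2 2.1.1, HTSeq 0.6.1 and the build mm10. No source used here gives the gene annotation or the strand setting.

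Genes were filtered with filterByExpr, scaled by TMM and tested with the quasi-likelihood test of edgeR 4.0.16 (robust, R 4.3.3). All 3 groups entered the same fit, without a covariate. Adjustment followed Benjamini and Hochberg, and adjusted p-values under 0.05 were called. Log2 CPM used a prior count of 2. Alternatives were DESeq2 1.42.0, other scalings and filters, the number series, and fits without single libraries. P-values rest on the spread between libraries within groups, pooled over all 12 libraries and drawn toward that of other genes. The labels give the libraries as separate samples without saying more. No 2 libraries agreed within sampling noise (smallest chi-square over its degrees of freedom, 12.6, over 66 pairs). Positions are from GENCODE M21 (mm10). The fit was tested on simulated data. The members and lists were chosen with earlier results of these data known. The text names the 10 members, in each list the 2 genes of smallest unadjusted p in KO vehicle against WT vehicle, and for each member the 2 genes of highest correlation. Genes called by an alternative alone were named after their values were seen.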

Additional observations from a re-analysis of the deposited data

Results flagged for a closer look

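Lum in WT vehicle 3 was at 129 CPM, against 58.9 to 69.2 CPM in the other 3 libraries of its group. The gap to the next library was 0.852 of the whole range of the group, above Dixon's 95% critical value for 4 samples. It was the only such library among 60 sets of 4 (20 genes in 3 groups), where chance gives about 1 in 20. None of the 10 matrix processing members had such a library. Lum was lower in all 4 KO vehicle libraries than in the other 3 libraries of WT vehicle.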

How the results depend on the processing

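KO vehicle lies wholly in the lower number series, which the labels do not call a batch, so series and group are partly confounded. No paired analysis was possible because replicate numbers follow accession order and pair no libraries. In KO vehicle against WT vehicle, 5 members were past the threshold. That count was 0 with a term for the number series, 0 in the lower series alone, 2 without KO vehicle 1 and KO Treg 2 together, and 1 to 5 when 1 library was left out. Over all genes it was 34, against 250 with DESeq2, 0 with the series term, 0 in the lower series, 3 without KO vehicle 1 and KO Treg 2, and 1 to 125 when 1 library was left out. Of list genes 0 were called, against 7 with DESeq2, 1 (Tgm2) with the fit of the 2 groups alone, and 0 to 4 when 1 library was left out. The 4 were Lum, Mmp2, Mmp9 and Plod2, without WT vehicle 4. The lower series alone leaves fewer samples, and for the others the cause was not tested.

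In KO Treg against KO vehicle, DESeq2 called 3 members against 0. Over all genes the count was 1, against 64 with DESeq2. It was 0 with RLE scaling, the filter of 1 CPM in 4 libraries, the fit of the 2 groups alone, the series term, the lower series alone, the fit without KO vehicle 1 and KO Treg 2 and the fit that was not robust. It was 0 whichever library was left out. In KO Treg against WT vehicle, 0 genes were called, against 1 with DESeq2 and 3 in the higher series alone.

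Directions reversed 9 times, all for differences that passed no threshold. Htra1 in KO vehicle against WT vehicle ran from -0.049 (without KO vehicle 3) to 0.24 when 1 library was left out, with -0.042 without WT vehicle 4. In KO Treg against KO vehicle it ran from -0.034 (without KO vehicle 2) to 0.25. In KO Treg against WT vehicle, Pcolce was at 0.25 in the higher series alone and ran from -0.26 to 0.041 (without WT vehicle 1). Lox ran from -0.25 to 0.071 (without WT vehicle 2), and Loxl1 from -0.043 (without WT vehicle 2) to 0.12, with -0.0056 without WT vehicle 4. Sparcl1 was at 0.060 in the lower series alone. The cause was not tested. Depth limits Srpx2 and Lox most, with at least 112 and 103 counts in a library.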
